A study of Homo sapiens with 6 samples.

Results

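The receptors EGFR, ERBB3 and ERBB4 and the EGF-family ligands AREG, EREG, HBEGF, TGFA, BTC, EPGN and NRG1 were followed in SKOV3, an established human ovarian carcinoma line, 24 h after an siRNA was given, a small interfering RNA that leads the cell to degrade transcripts of the same sequence. These 10 genes, 3 receptors and 7 ligands, were taken by their symbols from tables of 58735 genes, and each symbol matched 1 row. The siHJURP cells had received an siRNA against HJURP, which delivers the centromeric histone CENPA to chromatin, and the NC cells had received a negative control siRNA, in the same line and harvested at the same time. Each group had 3 bulk RNA-seq libraries, with 17524772 to 18027065 reads in genes in siHJURP and 17116487 to 17625638 in NC. The labels leave unclear whether the replicates were separate cultures, so the p-values measure the spread between these libraries, which may be partly technical.

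Members of the EGF family are made as membrane-bound precursors that metalloproteases release, and each soluble ligand then joins ERBB receptors into pairs whose kinase domains phosphorylate one another. TGFA, AREG and EPGN bind EGFR, HBEGF, EREG and BTC bind EGFR and ERBB4, and NRG1 binds ERBB3 and ERBB4. ERBB3 has little kinase activity of its own and works through its partners, and ERBB2, which has no known ligand, is the preferred partner and is amplified in SKOV3. The receptors signal through RAS and the MAP kinases and through PI3 kinase, and carcinoma cells often make both a receptor and its ligands.

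The promoters of the members that fell, EGFR, HBEGF and TGFA, are shown first. That of AREG, which was not called, is shown for its cAMP response element. They are RefSeq sequences of GRCh38.p14 that run from 250 bases before a transcription start to 50 after it, 5′ to 3′ on the strand of the gene. Promoters were obtained for 8 of the 10 members. ERBB3 had no match, and NRG1 was left out of the search, so its promoter is not described. Capitals mark GGGCGG (the GC box bound by SP1), TGANTCA (AP-1) or TGACGTCA (the cAMP response element, CRE) on either strand.
EGFR, first start, chr7:55018767-55019066, plus strand: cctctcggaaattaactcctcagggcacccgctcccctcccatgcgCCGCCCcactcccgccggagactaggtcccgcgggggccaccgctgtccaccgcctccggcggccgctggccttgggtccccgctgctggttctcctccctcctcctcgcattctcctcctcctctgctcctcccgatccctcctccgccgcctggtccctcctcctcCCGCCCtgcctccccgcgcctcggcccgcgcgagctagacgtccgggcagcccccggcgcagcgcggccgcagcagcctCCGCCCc
EGFR, second start, chr7:55109589-55109888, plus strand: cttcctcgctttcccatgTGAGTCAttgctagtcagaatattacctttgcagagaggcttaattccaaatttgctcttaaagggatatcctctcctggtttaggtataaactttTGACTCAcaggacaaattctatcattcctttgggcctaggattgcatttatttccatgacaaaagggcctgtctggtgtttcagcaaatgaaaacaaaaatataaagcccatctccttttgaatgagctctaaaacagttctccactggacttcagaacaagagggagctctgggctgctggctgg
HBEGF, chr5:140346554-140346853, minus strand: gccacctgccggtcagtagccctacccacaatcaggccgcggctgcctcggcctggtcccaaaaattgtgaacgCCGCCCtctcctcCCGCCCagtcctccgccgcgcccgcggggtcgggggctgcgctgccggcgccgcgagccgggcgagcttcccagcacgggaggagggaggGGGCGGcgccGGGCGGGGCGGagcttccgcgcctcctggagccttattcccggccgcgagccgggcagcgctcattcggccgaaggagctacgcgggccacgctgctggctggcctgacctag
TGFA, first start, chr2:70553777-70554076, minus strand: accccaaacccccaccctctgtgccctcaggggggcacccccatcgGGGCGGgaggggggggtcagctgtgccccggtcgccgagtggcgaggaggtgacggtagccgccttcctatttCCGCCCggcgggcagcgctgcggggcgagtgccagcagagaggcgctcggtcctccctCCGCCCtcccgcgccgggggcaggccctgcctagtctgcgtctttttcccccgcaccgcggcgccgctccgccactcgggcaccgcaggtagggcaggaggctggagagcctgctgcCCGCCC
TGFA, second start, chr2:70553397-70553696, minus strand: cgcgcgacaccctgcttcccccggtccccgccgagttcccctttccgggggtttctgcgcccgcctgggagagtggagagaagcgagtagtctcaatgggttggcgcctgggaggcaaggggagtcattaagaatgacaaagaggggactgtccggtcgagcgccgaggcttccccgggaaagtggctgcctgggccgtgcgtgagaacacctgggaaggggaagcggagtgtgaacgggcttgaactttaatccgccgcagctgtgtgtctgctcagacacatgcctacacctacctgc
AREG, chr4:74444886-74445185, plus strand: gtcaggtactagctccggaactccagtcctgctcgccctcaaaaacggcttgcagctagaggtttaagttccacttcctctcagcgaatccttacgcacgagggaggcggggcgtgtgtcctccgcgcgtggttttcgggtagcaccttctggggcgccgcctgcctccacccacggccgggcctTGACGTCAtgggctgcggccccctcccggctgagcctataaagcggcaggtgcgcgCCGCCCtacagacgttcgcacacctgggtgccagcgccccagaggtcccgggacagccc

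The first EGFR start held 3 GC boxes, HBEGF held 5 and the first TGFA start held 4, and 1 pair of the HBEGF boxes overlapped. The other matched members held fewer, with 1 each at ERBB4, AREG and BTC and 0 at EREG and EPGN. These others averaged under 1 FPKM and were not tested, and NRG1, which rose, was not searched. Neither these counts nor the base shares below can therefore be set against the direction of change. GC boxes stood in 6 of the 10 matched starts and in 45% of the 35116 promoters of the same length that were searched. The second starts of EGFR and TGFA held 0 GC boxes. G and C made up 75.3%, 75.0% and 75.3% of the bases at the first EGFR start, HBEGF and the first TGFA start. The share was 42% at the second EGFR start and 63% at the second TGFA start, against a median of 58.7% over all promoters. Among the other matched members it ran from 37.7% at EPGN to 66.3% at AREG. The second EGFR start lies 90822 bases downstream of the first, inside an annotated EGFR exon, and its window held AP-1 letters at positions -232 and -136 from the start, letters found in 7.71% of all promoters. AREG held the CRE letters at position -65, and 1.85% of all promoters held them. No AP-1 match overlapped a CRE match in these windows. A match describes letters only, and binding at these promoters was not measured.

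In FPKM, read counts scaled to exon length and library size, HJURP itself stood at 8.66, 8.64 and 8.65 in the siHJURP libraries and at 29.23, 29.02 and 29.99 in the NC libraries, 70.6% lower. Its log2 fold change, on the log2(FPKM + 1) scale used throughout unless reads are named, was -1.66 (SE 0.034, limma adjusted p = 1.41e-06), and p was 0.1 in an exact two-sided permutation test, the lowest possible with 3 libraries per group. Of 8 listed markers of an ovarian carcinoma line, 7, PAX8, SOX17, KRT7, KRT8, KRT18, ERBB2 and MSLN, averaged at least 1 FPKM. Of these 7, 4 fell and 1, ERBB2, rose, and over all tested genes 20.3% were called lower and 17.6% higher. EPCAM averaged less (0.502 ± 0.19 in siHJURP and 0.387 ± 0.098 in NC, SD, n = 3 each). Of 11 markers of blood, endothelial, stromal and liver cells, COL1A1 reached 1 FPKM (11.9 ± 2.2 in siHJURP and 13.4 ± 2.0 in NC), and the T cell marker CD3E had 0 reads in all 6 libraries. Interferon-stimulated genes set siHJURP replicates 1 and 3 apart from replicate 2. IFI6 was at 160, 12.7 and 234 FPKM in siHJURP replicates 1, 2 and 3 and at 13.9 to 16.9 in NC. Of 12 listed genes of this kind 10 were tested. Of these, 1 was called higher and 0 lower, beside 17.6% and 20.3% of all tested genes. The median log2 fold change of the 10 was 1.47 and the lowest was 0.08. The values of the members without siHJURP replicates 1 and 3 are therefore given below, and the part of this split in any result was not tested.

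Of the 10 genes, 4 averaged at least 1 FPKM over the 6 libraries and were tested: the receptor EGFR and the ligands HBEGF, TGFA and NRG1. EGFR, HBEGF and TGFA fell and NRG1 rose with HJURP silencing. Over all 13365 tested genes, 37.9% were called at an adjusted p under 0.05, 20.3% lower and 17.6% higher, so a call by itself was common. The libraries of both groups did not overlap for any of these 4 members, and the same held for 52.2% of all tested genes. Both group means were at least 1 FPKM for all 4, so none had passed the filter through 1 group alone. The other 6 members, ERBB3, ERBB4, AREG, EREG, BTC and EPGN, lay under the filter and are given below with their reads.

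**Figure D1:**
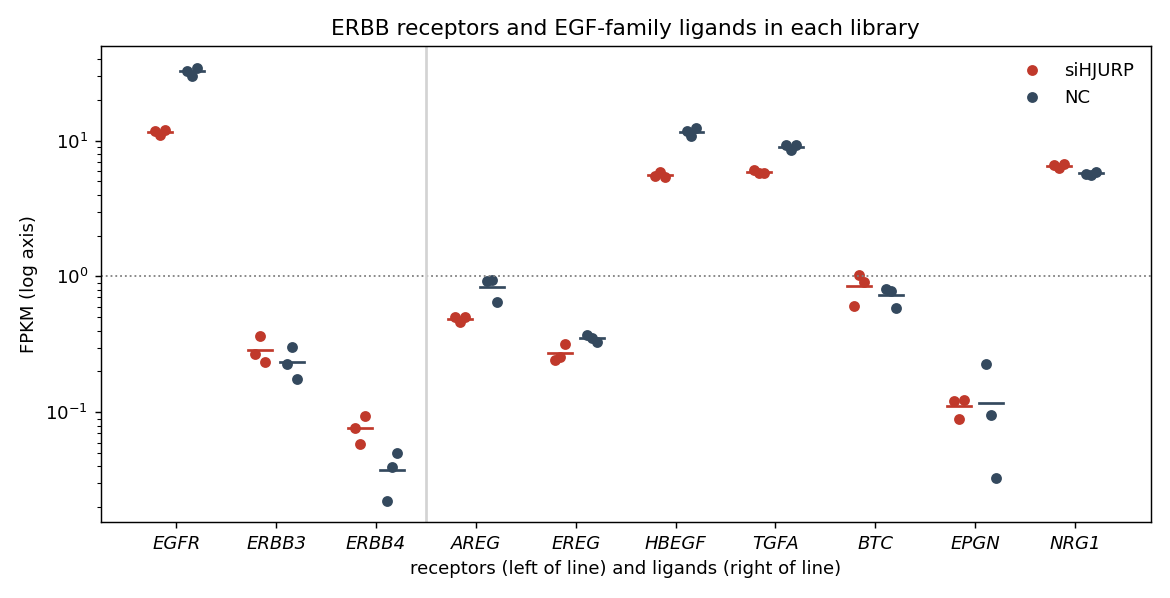
FPKM of the 10 genes (log axis) in each library, with points for libraries and bars for group means, siHJURP in red and NC in dark blue, receptors left of the grey line and ligands right of it; the dotted line is the filter at 1 FPKM. EGFR, HBEGF and TGFA are lower in every siHJURP library than in every NC library, NRG1 is slightly higher, and the other 6 genes average under 1 FPKM.

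The first receptor, EGFR (ENSG00000146648, chromosome 7, 55019021 to 55211628 in hg38, plus strand), which binds EGF, TGFA and AREG, was the most abundant of the 10 genes in both groups. Its FPKM values were 11.8, 11.1 and 12.0 in the siHJURP libraries (replicates 1, 2 and 3) and 32.6, 29.8 and 34.4 in the NC libraries. The highest siHJURP library stood far below the lowest NC library, and the spread within each group was small beside the gap. These values rested on 2551 to 2710 reads per siHJURP library and 6494 to 7260 per NC library. The mean was 11.6 ± 0.51 FPKM in siHJURP and 32.3 ± 2.3 in NC (SD, n = 3 each), 63.9% lower (log2 -1.39, SE 0.060, limma adjusted p = 2.21e-05). This was the 38th lowest of the 13365 fold changes. In bulk samples less RNA per cell and fewer cells with the transcript cannot be told apart. The antisense gene EGFR-AS1 overlaps EGFR exons, and strand use in counting is unknown here; it had at most 15 reads in any library.

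ERBB3 (ENSG00000065361, chromosome 12, 56076799 to 56103505, plus strand), the NRG1 receptor with a weak kinase, had a low measured level in both groups. Its FPKM values were 0.268, 0.366 and 0.234 in the siHJURP libraries and 0.226, 0.305 and 0.177 in the NC libraries, and the groups overlapped. The libraries held 44, 61 and 38 reads of ERBB3 in siHJURP and 35, 48 and 27 in NC. Limma's voom on whole reads, over the 18916 genes with a mean of at least 5 reads, gave a log2 fold change of 0.35 (SE 0.26, adjusted p = 0.323). A read-through gene, AC034102.2, shares ERBB3 exons and had 0 reads. How reads in shared exons were counted is unknown here, so the ERBB3 level is uncertain.

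ERBB4 (ENSG00000178568, chromosome 2, 211375717 to 212538841, minus strand), the other neuregulin receptor and one that also binds HBEGF, was the lowest of the 10 genes. It had 18, 14 and 22 reads in siHJURP replicates 1, 2 and 3, against 5, 9 and 11 reads in NC replicates 1, 2 and 3, which is 0.0762 ± 0.018 FPKM in siHJURP and 0.0374 ± 0.014 in NC. Every siHJURP library was above every NC library, but the voom fold change of 1.07 on the log2 scale (SE 0.42) did not pass, with an adjusted p of 0.0569. Summed over the group, the 54 reads in siHJURP had a counting interval of 40.6 to 70.5 and the 25 reads in NC one of 16.2 to 36.9 (exact Poisson, 95%, counting error only).

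Among the 3 receptors EGFR, ERBB3 and ERBB4, EGFR made up nearly all of the signal in both groups, 96.9 ± 0.56% of the summed FPKM of the 3 receptors in siHJURP and 99.1 ± 0.26% in NC. The sum was 12.0 ± 0.46 FPKM in siHJURP and 32.5 ± 2.3 in NC. ERBB2, the fourth receptor of the family, moved the other way: it had 337, 322 and 370 FPKM in siHJURP, against 273, 254 and 266 in NC (log2 0.37, SE 0.059, limma adjusted p = 0.00299), and it overlaps exons of MIEN1 and PGAP3 on the other strand. Without siHJURP replicates 1 and 3 together ERBB2 was not called (log2 0.28, limma adjusted p = 0.056). The ratio of ERBB2 to EGFR was 29.4 ± 1.2 in siHJURP and 8.21 ± 0.41 in NC. No library of 1 group came near the other group in this ratio, whose range was 28.5 to 30.8 in siHJURP and 7.75 to 8.52 in NC. FPKM uses the union of all annotated exons as the gene's length, so ratios between genes also depend on which transcripts are made, and they get no test here.

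HBEGF (ENSG00000113070, chromosome 5, 140332843 to 140346631, minus strand), the heparin-binding ligand of EGFR and ERBB4 and the receptor of diphtheria toxin in its membrane form, was the most abundant ligand in NC. The siHJURP libraries were at 5.52, 5.86 and 5.39 FPKM and the NC libraries at 11.7, 10.8 and 12.3. The groups lay far apart, with 293 to 326 reads per siHJURP library and 568 to 628 per NC library. The mean was 5.59 ± 0.24 FPKM in siHJURP and 11.6 ± 0.77 in NC, 51.9% lower (log2 -0.94, SE 0.058, limma adjusted p = 6.33e-05).

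TGFA (ENSG00000163235, chromosome 2, 70447280 to 70554193, minus strand), transforming growth factor alpha, binds EGFR. Its level was 6.11, 5.74 and 5.74 FPKM in siHJURP cells and 9.32, 8.45 and 9.24 FPKM in NC cells. The groups did not overlap, on 513 to 550 reads per siHJURP library and 730 to 792 per NC library. The mean was 5.86 ± 0.21 FPKM in siHJURP and 9.0 ± 0.48 in NC, 34.9% lower (log2 -0.54, SE 0.052, limma adjusted p = 0.000377). TGFA-IT1, inside a TGFA intron, had at most 4 reads.

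NRG1 (ENSG00000157168, chromosome 8, 31639386 to 32767959, plus strand), neuregulin 1, the ligand of ERBB3 and ERBB4, was the only tested member that rose. It stood at 6.65, 6.25 and 6.72 FPKM in siHJURP cells and at 5.67, 5.61 and 5.88 FPKM in NC cells. The groups did not overlap, but the gap was narrow: the lowest siHJURP library had 6.25 FPKM and the highest NC library 5.88. The mean was 6.54 ± 0.25 FPKM in siHJURP and 5.72 ± 0.14 in NC (log2 0.17, SE 0.046, limma adjusted p = 0.0289), on 1304 to 1370 reads per siHJURP library and 1100 to 1122 per NC library. The call was lost without siHJURP replicate 1 (0.0959) or 3 (0.0909) and without NC replicate 1 (0.076), 2 (0.0652) or 3 (0.0509), and over genes of at least 0.1 FPKM (0.0522) or with no filter (0.0627). Voom on whole reads gave 0.25 on the log2 scale (SE 0.054, adjusted p = 0.0017).

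Without siHJURP replicates 1 and 3, the libraries with high interferon-stimulated genes, EGFR stood at -1.46 (adjusted p = 0.00509), HBEGF at -0.88 (0.00942) and TGFA at -0.57 (0.0202), and NRG1 at 0.11 (0.363) was not called. These fits rest on 1 siHJURP library, which is assumed to vary like the NC libraries.

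The remaining ligands were low, and 4 of the 7 ligands, EPGN, EREG, AREG and BTC, lie side by side within 486.2 kb on chromosome 4 (74308473 to 74794686), with no other protein-coding gene between the start of EPGN and the end of BTC. None of the 4 averaged 1 FPKM in either group. AREG (ENSG00000109321, 74445134 to 74455009, plus strand), amphiregulin, an EGFR ligand, had 15, 14 and 15 reads in siHJURP replicates 1, 2 and 3, against 26, 27 and 18 reads in NC. Every siHJURP library was below every NC library, at 0.489 ± 0.025 FPKM in siHJURP and 0.837 ± 0.16 in NC, but the voom fold change of -0.69 (SE 0.33) did not pass, with an adjusted p of 0.118.

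EREG (ENSG00000124882, 74365143 to 74388751, plus strand), epiregulin, which binds EGFR and ERBB4, had 25, 27 and 33 reads in siHJURP and 36, 35 and 32 in NC. In FPKM the groups were 0.241, 0.256 and 0.321 in siHJURP and 0.368, 0.352 and 0.332 in NC, just short of touching. The voom fold change was -0.31 (SE 0.25, adjusted p = 0.37). BTC (ENSG00000174808, 74744759 to 74794686, minus strand), betacellulin, had 0.607, 1.02 and 0.907 FPKM in siHJURP and 0.809, 0.775 and 0.590 in NC. The BTC groups overlapped, on 31 to 53 reads in siHJURP and 28 to 39 in NC (voom 0.25, SE 0.26, adjusted p = 0.493). EPGN (ENSG00000182585, 74308473 to 74315307, plus strand), epigen, had 4, 3 and 4 reads in siHJURP and 7, 3 and 1 in NC. Both EPGN groups summed to 11 reads, with a counting interval of 5.49 to 19.7 (exact Poisson, 95%, counting error only), and a difference was not detectable at this depth.

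Of the 9 members with a mean of at least 5 reads, which leaves out EPGN, 7 had groups that did not overlap: EGFR, HBEGF, TGFA, AREG and EREG were lower in siHJURP and ERBB4 and NRG1 higher, while ERBB3 and BTC overlapped. Over all 18916 genes at that depth, 44.4% had groups that did not overlap. Voom called 4 of the 9, EGFR, HBEGF, TGFA and NRG1, where it called 34.3% of all those genes. The EREG groups were apart in FPKM only, since its unscaled reads, 25 to 33 in siHJURP and 32 to 36 in NC, overlapped.

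The order of the ligands differed between the groups. In siHJURP, NRG1 (6.54 FPKM) stood above TGFA (5.86) and HBEGF (5.59), whose library values overlapped, and then came BTC (0.845), AREG (0.489), EREG (0.273) and EPGN (0.111). In NC, HBEGF (11.6) stood above TGFA (9.0) and NRG1 (5.72) with no overlap between these neighbours, followed by AREG (0.837) and BTC (0.725), which overlapped, EREG (0.351) and EPGN (0.118). Among the low receptors, ERBB3 overlapped EREG in siHJURP, and ERBB4 overlapped EPGN in both groups.

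The summed FPKM of the 7 ligands was 19.7 ± 0.032 in siHJURP and 28.4 ± 1.2 in NC. NRG1 made up 33.2 ± 1.2% of this sum in siHJURP and 20.2 ± 0.61% in NC, and HBEGF made up 28.4 ± 1.3% in siHJURP and 41.0 ± 1.3% in NC. The share of TGFA was 29.7 ± 1.0% in siHJURP and 31.7 ± 0.42% in NC. HBEGF per NRG1 was 0.857 ± 0.072 in siHJURP and 2.03 ± 0.092 in NC. The sum of EGFR, ERBB3 and ERBB4 per summed ligands, which leaves out ERBB2, came to 0.609 ± 0.023 in siHJURP and 1.15 ± 0.040 in NC. ERBB2 alone, at 343 ± 25 FPKM in siHJURP and 264 ± 9.7 in NC, was far above the ligand sum in every library. These sums are descriptions with no test.

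**Figure D2:**
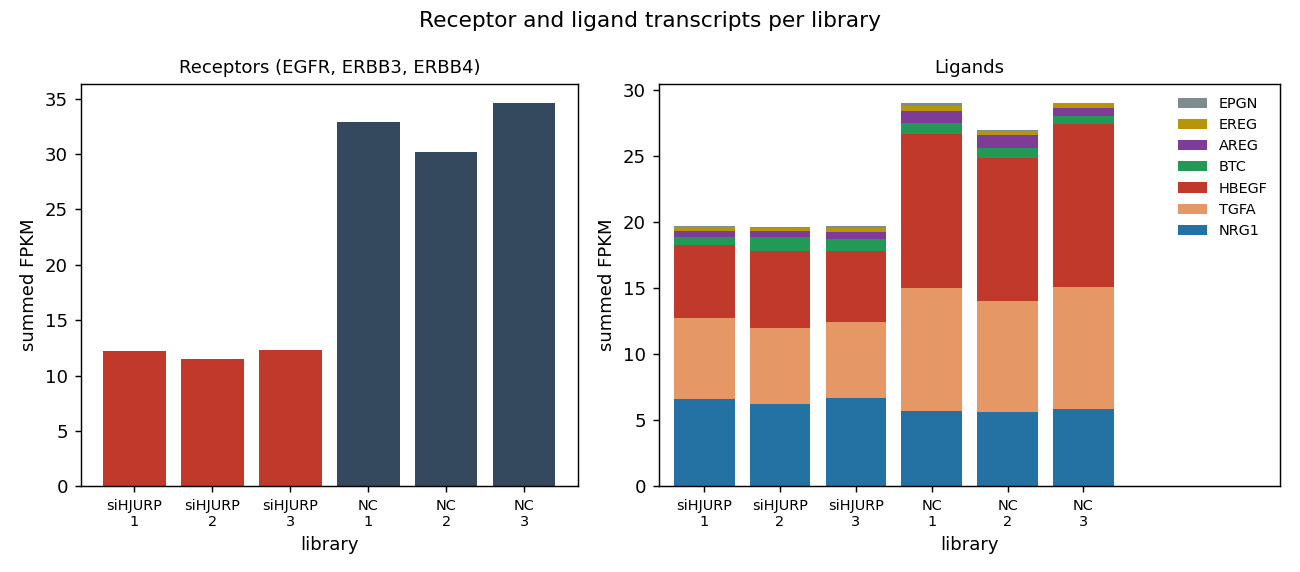
Summed FPKM of EGFR, ERBB3 and ERBB4 (left, siHJURP in red, NC in dark blue) and of the 7 ligands stacked by gene (right), 1 bar per library. The receptor sum is 11.5 to 12.3 in siHJURP and 30.1 to 34.6 in NC; in the ligand bars the HBEGF and TGFA blocks are smaller in siHJURP while the NRG1 block at the base is slightly taller.

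Around the ligands and receptors, the genes that release the ligands were examined next. Of 12 listed genes of ligand shedding, 9 were tested, with 3 lower, 1 higher and 5 not called. Their median on the log2 scale was -0.11, beside -0.01 over all tested genes. Of all tested genes, 20.3% were called lower and 17.6% higher. ADAM17, the main sheddase of TGFA, AREG and HBEGF, was at 4.59, 4.16 and 4.63 FPKM in siHJURP cells, against 4.78, 4.70 and 5.20 in NC, and did not pass (log2 -0.11, SE 0.060, limma adjusted p = 0.187), and its exons overlap those of IAH1 on the other strand. RHBDF1 (iRhom1), which carries ADAM17 to the cell surface, fell to 13.4 ± 0.46 FPKM in siHJURP, against 16.6 ± 1.0 in NC (log2 -0.30, limma adjusted p = 0.00503). ADAM12 and ADAM19 fell by 0.35 and 0.25 on the log2 scale, and ADAM15 rose by 0.43, with 8.62 ± 0.30 FPKM in siHJURP and 6.14 ± 0.59 in NC. ADAM12 was not called without siHJURP replicate 2 (limma adjusted p = 0.0634), NC replicate 1 (0.0734) or NC replicate 3 (0.0757). ADAM19 was not called without siHJURP replicate 1 (0.0794) or 3 (0.0709) or after TPM (0.0689) or total-read scaling (0.0522). Neither was called with no filter (0.075 and 0.0765). With no filter 1 of the list was lower, and 2126 of all genes were, against 2713 as reported. Without siHJURP replicates 1 and 3 together, fewer genes were called in this list and over all genes.

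Of 24 adaptors and proximal effectors of the receptors, 22 were tested, with 8 lower, 2 higher and 12 not called and a median of -0.09. The shares over all tested genes were 20.3% lower and 17.6% higher. PIK3CB, the beta catalytic subunit of PI3 kinase, was at 4.395, 4.424 and 4.882 FPKM in siHJURP cells, against 10.7, 10.9 and 11.3 in NC (log2 -1.11, SE 0.051, limma adjusted p = 2.49e-05). EPS8, an EGFR substrate that links the receptor to actin, fell by 0.49 on the log2 scale, PIK3R1, a regulatory subunit of PI3 kinase, by 0.37 and VAV2 by 0.25. GRB2, the adaptor that ties receptors to RAS, had 40.7 ± 0.21 FPKM in siHJURP and 46.0 ± 1.3 in NC (log2 -0.17, limma adjusted p = 0.00794). Without siHJURP replicates 1 and 3 together, fewer genes were called in this list and over all genes. The count of higher genes was 4 after TPM, quantile or total-read scaling and with voom. Over all genes these settings called 3155, 2753, 3102 and 3543 higher, against 2355 as reported. Over genes of at least 5 FPKM 5 of the list fell, and 2192 of all genes did, against 2713 as reported.

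Of 23 genes that inhibit, ubiquitinate or take up the receptors, 22 were tested, with 3 lower, 3 higher and 16 not called and a median of -0.08. The shares over all tested genes were 20.3% lower and 17.6% higher. ERRFI1 (MIG6), an inhibitor that binds the EGFR kinase and is itself induced by EGFR signalling, had 14.0, 14.5 and 13.8 FPKM in siHJURP, against 32.5, 28.4 and 30.7 in NC (log2 -1.06, SE 0.054, limma adjusted p = 3.12e-05). The phosphatase PTPRJ and the endocytic adaptor EPN1 rose by 0.44 and 0.42 on the log2 scale, and USP8, a deubiquitinase of endosomes, fell by 0.25. CBL, the ubiquitin ligase of active EGFR, had 12.2 ± 0.67 FPKM in siHJURP and 13.5 ± 1.9 in NC and did not pass (limma adjusted p = 0.304). Without siHJURP replicates 1 and 3 together, fewer genes were called in this list and over all genes. The count of higher genes was 5 after TPM, quantile or total-read scaling and 7 with voom. Over all genes these settings called 3155, 2753, 3102 and 3543 higher, against 2355 as reported. The count of lower genes in the list was 5 with no trend, 6 with array weights and 7 without NC replicate 2. Over all genes it was 2591, 3022 and 2532, against 2713 as reported.

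Among 25 other growth factor receptor tyrosine kinases, 16 were tested, with 7 lower, 3 higher and 6 not called and a median of -0.12. The shares over all tested genes were 20.3% lower and 17.6% higher. Of the 7 lower receptors, KDR averaged 0.644 FPKM in siHJURP and 1.36 in NC and so passed the filter through NC alone. This leaves 6 without KDR. No other called gene of the 4 lists passed the filter through 1 group alone. Ordered with EGFR and ERBB2 from lowest to highest fold change, EGFR was the lowest of the 18 tested. EPHA2, an ephrin receptor, came next on this scale, with 58.5 ± 0.79 FPKM in siHJURP and 99.9 ± 3.7 in NC (log2 -0.76, SE 0.038, limma adjusted p = 2.92e-05). With voom on reads the low gene KDR fell more, by log2 -1.02 against -0.72 for EPHA2. MST1R (RON) fell by 0.38 and MET, the receptor of hepatocyte growth factor, by 0.31 on the log2 scale, while KIT, the stem cell factor receptor, rose by 0.575, with 4.49 ± 0.60 FPKM in siHJURP and 2.67 ± 0.17 in NC. By level, EGFR ranked 8th of these 18 receptors in siHJURP and 5th in NC, with ERBB2 first in both groups. Without siHJURP replicates 1 and 3 together, fewer genes were called in this list and over all genes. In this list 1 rose without siHJURP replicate 1 alone or with no filter, and 0 rose over genes of at least 5 FPKM. Over all genes these settings called 1649, 1681 and 1663 higher, against 2355 as reported.

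**Figure D3:**
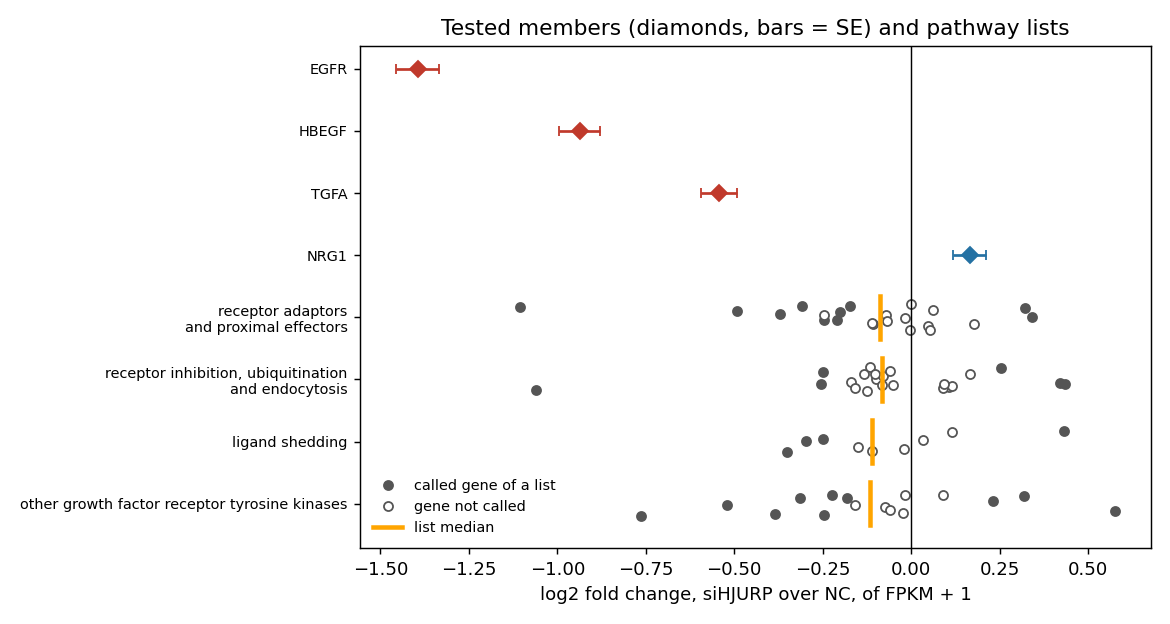
Log2 fold changes of FPKM + 1, siHJURP over NC: diamonds with SE bars for the 4 tested members, circles for the tested genes of 4 pathway lists (filled where the limma adjusted p is under 0.05) and orange bars for list medians. EGFR at -1.39 lies left of every listed gene, and the list medians lie between -0.12 and -0.08.

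The genes with the most similar profiles were found among 10874 other tested protein-coding genes by the root mean square difference of log2(FPKM + 1), centred per gene, over the 6 libraries. For EGFR they were the chemokine CXCL8 (0.061), ANGPTL4 (0.064), an inhibitor of lipoprotein lipase, and ISOC1 (0.069). CXCL8 had 23.4 ± 0.73 FPKM in siHJURP and 61.0 ± 2.0 in NC. For HBEGF they were PTGS1 (0.028), DCP1A (0.045) and SEMA4B (0.046). PTGS1 averaged 0.512 FPKM in siHJURP and 1.87 in NC, so it passed the filter through NC alone, and its NC mean was 3.64 times its siHJURP mean, against 2.08 times for HBEGF, since the added 1 FPKM shrinks the change of a low gene. The nearest were, for TGFA, PPFIA1 (0.022), ZNF275 (0.023) and SIKE1 (0.026), and for NRG1 ZBTB4 (0.012), FAM114A1 (0.012) and FTO (0.015). The differences are smaller for members that moved less, and with 3 libraries per group these profiles hold little beyond the group difference.

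**Figure D4:**
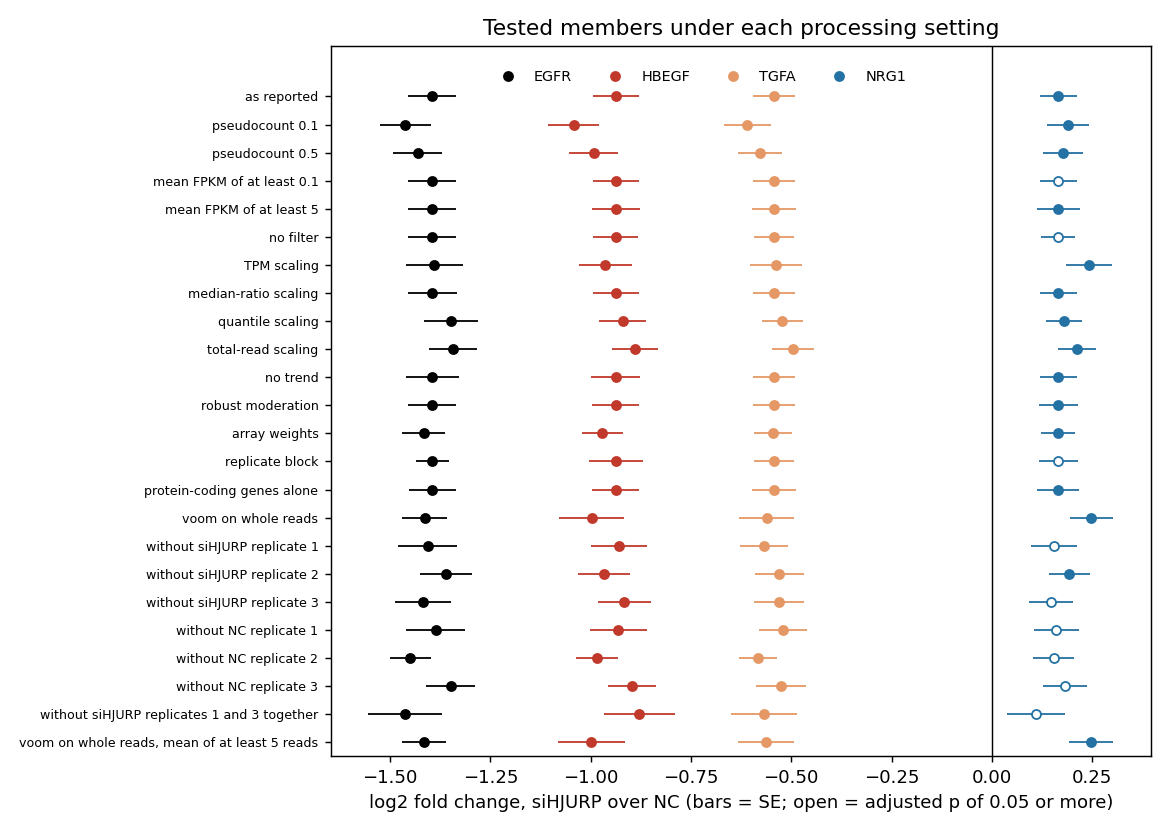
Log2 fold changes, siHJURP over NC, of EGFR, HBEGF, TGFA and NRG1 under the reported setting (top) and each of the other settings, with SE bars; open circles are adjusted p-values of 0.05 or more. EGFR, HBEGF and TGFA stay below 0 and called in every setting shown, and NRG1 stays above 0 with open circles in 9 of 23 alternatives.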

How the data were processed

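Bulk RNA-seq of 3 siHJURP and 3 NC libraries was used. The authors' deposited values are FPKM, per the file headers; the submitters' processing notes name hg38, featureCounts 1.5.0-p3 and HISAT2 2.0.5. Strand use and the FPKM library size are not given in the sources used here. FPKM times gene length came to whole multiples of 1 read in 100% of values (tolerance 0.01 reads). The library size behind the FPKM was 1.02 to 1.03 times the read sum in siHJURP and 0.985 to 0.989 times in NC. Gene lengths equalled the union of exons in GENCODE 29 for 58724 of 58735 genes.

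Genes with a mean of at least 1 FPKM were tested with limma 3.58.1 in R 4.3.3 on log2(FPKM + 1), two-sided, with a variance trend over mean level and Benjamini-Hochberg adjusted p under 0.05 as the call; the scale understates changes of low genes. The fit was tested on simulated reads, with a spread that was set rather than taken from these data and far fewer changed genes. It called 58% and 62% of genes with true log2 changes of -0.5 and 0.5, and 82% and 92% at -1 and 1. Of unchanged genes it called 0.076%. A true change of -1 came out at a median of -0.774. Limma's voom on the whole reads was an alternative, and its version over genes with a mean of at least 5 reads was chosen after seeing the data. Python 3.11.15, pandas 2.3.3, numpy 2.4.6 and scipy 1.17.1 were used. The members and lists were chosen with earlier results of these data known. Named were the 10 members, HJURP, ERBB2, up to 4 called genes per list by adjusted p, and the 3 nearest profiles of each called member; ADAM17, GRB2, CBL, KDR, IFI6 and the markers fall outside this rule and were chosen after their values were seen.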

Additional observations from a re-analysis of the deposited data

How the results depend on the processing

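Over 23 alternatives, 1 of them (voom over genes of at least 5 reads) chosen after seeing the data, EGFR, HBEGF and TGFA kept their direction and their calls, at -1.46 to -1.34, -1.04 to -0.88 and -0.61 to -0.50 on the log2 scale, with a highest adjusted p of 0.00509, 0.00942 and 0.0202. HJURP ranged from -1.75 to -1.61, and 3 members were called lower in each alternative. The count of members called higher, 1 as reported (NRG1), was 0 over genes of at least 0.1 FPKM, with no filter, with a replicate block and without siHJURP replicates 1 and 3 together, and 0 to 1 with each library left out in turn. NRG1 kept its sign, with 0.11 to 0.25 on the log2 scale and adjusted p-values of 0.0017 to 0.363; the cause was not tested. With the replicate number as a block the limma adjusted p of NRG1 was 0.0537. Same-numbered libraries had correlations of their deviations between -0.012 and 0.016. No strong shared effect of the number showed, but these correlations cannot tell whether a number marks a shared culture. Over all genes, 5068 were called, 2713 lower and 2355 higher; without siHJURP replicates 1 and 3 together, which leaves fewer samples, these were 1844, 1128 and 716. The higher count was 3543 with voom and 3898 with voom over genes of at least 5 reads. With TPM the split was 2144 lower and 3155 higher, and with total reads 2198 and 3102. Leaving out 1 library gave 3719 to 4724 calls, 2070 to 2532 lower and 1649 to 2192 higher. Of the other named genes, PIK3CB, VAV2, ERRFI1, EPN1, PTPRJ, EPHA2 and MST1R kept their calls in 23 alternatives. Without siHJURP replicates 1 and 3 together ERBB2 (0.28, adjusted p = 0.056), ADAM15, RHBDF1, USP8, KIT and MET were not called. Depth limits ERBB3, ERBB4, AREG, EREG, BTC and EPGN, which had 1 to 61 reads per library.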
